A study of Mus musculus with 28 samples.

Results

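Single neurons from hippocampal cultures, drawn up with a glass pipette, were set against pieces of bulk hippocampus. The comparison used 6 of the 28 libraries in the series, 3 from cultured neurons and 3 from bulk tissue, chosen by the source name in the labels. Every library came from C57BL/6 mice and carried no treatment. The neurons had been kept on coverslips for 7 to 9 days, and each library was 1 cell. The bulk libraries came from the hippocampus of mice aged 8 to 10 days, prepared as acute brain slices. RNA of both kinds of sample was amplified linearly in 3 rounds of transcription before sequencing. The labels name no animal, culture or sequencing batch, so batches and groups cannot be told apart.

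The hippocampus is a forebrain structure that is needed for forming memories of events and places. Its tissue holds excitatory pyramidal and granule neurons, inhibitory interneurons, astrocytes, oligodendrocyte precursors, microglia and the cells of blood vessels. Bulk tissue averages all of them, while a pipette draws the soma and nearby processes of a single cell. Dissociated neurons in culture lose their inputs and regrow axons and dendrites on a flat surface, so culture and cell number both differ between the groups. The age of the mice that gave the cultures is not given here, so age may differ as well. In bulk samples a lower level of a transcript can come from fewer cells of a type or from less RNA per cell, and these cannot be told apart.

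The tables count reads for 28661 features named by UCSC known-gene identifiers, of which 11967 carry more than 1 identifier, joined by colons, for the isoforms they hold. Of the 55419 single identifiers, 0 matched a symbol in the annotation used here, and features are given by identifier only. For the same reason the labelled cell type could not be checked against neuronal or glial marker genes, and no sequence is shown. Each neuron is 1 cell of an unnamed culture, so a group counts as 1 sample and no p-value was computed. The libraries of a group show only the spread between cells or between pieces of tissue. Levels are counts-per-million (CPM), each count scaled to the reads assigned to features in its library.

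Assigned reads numbered 9.89, 11.3 and 32.9 M in neurons 1, 2 and 3 and 26.7, 59.0 and 31.7 M in bulk libraries 1, 2 and 3 (M for mega, the scale of CPM). A count of 0 allows up to 3 reads, worth 0.0912 to 0.303 CPM in the neurons and 0.0508 to 0.112 CPM in bulk tissue. Reads that fell outside every feature made up 67.5%, 75.3% and 31.5% of all counted reads in the neurons, against 30.5%, 21.1% and 23.6% in bulk tissue. All neurons lay above all bulk libraries, but the third neuron only by a small margin. Reads that could belong to several features went the other way, at 0.821%, 0.713% and 1.67% in the neurons and 8.88%, 4.68% and 5.68% in bulk tissue. The third neuron therefore differed from the other neurons in depth and in reads outside features, and the counts of features detected and called are also given without it.

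At 1 read, 2 of the 3 cultured neurons had more features detected than any piece of tissue, and the other a like number. With all libraries thinned at random to 9.89 M reads, the smallest total, features with 1 or more reads numbered 20984, 19754 and 17322 in the neurons and 17313, 17821 and 17046 in bulk tissue. The third neuron, the most deeply sequenced of the neurons, lay within the bulk range. The medians were 19754 in neurons (SD 1864, n = 3) and 17313 in bulk tissue (SD 394, n = 3), a difference of 2441, or 1225 without the first neuron and 3043 without the third. The surplus sat at low levels: the difference of medians was 1129 with 10 or more reads, 114 at 10 CPM or more and 94 at 50 CPM or more. The third neuron lay below every bulk library with 10 or more reads, at 12392 features against 13250 to 14075. It also did so at 10 CPM or more, at 7795 against 7989 to 9319. The neuron with the fewest reads outside features was also the one with the fewest features, and the part of such reads in the surplus was not tested.

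Features read in only 1 of the groups were mostly rare. At the common depth 9564 of the 28661 features had no read in any bulk library, and 4066 of these were detected in 1 or more neurons. They numbered 3152 in neuron 1, 2718 in neuron 2 and 1270 in neuron 3, and 780 were seen in all neurons. Their median was 4, 4 and 2 reads, so most lay close to the limit of detection. Those with 100 reads or more numbered 42, 117 and 2, most of them in neuron 2. In the other direction, 6187 of the 28661 features had no read in any neuron. Of these, 689 were detected in 1 or more bulk libraries, 175 of them in all bulk libraries, with medians of 2, 2 and 3 reads. At 1 read, the features private to the neurons thus outnumbered those private to tissue, with most of them close to the limit of detection. The third neuron, with its lower share of reads outside features, added the fewest.

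The single most abundant feature took a smaller share of reads in the neurons, while wider measures of concentration overlapped. The most abundant feature of a neuron took 0.912%, 1.03% and 1.09% of its reads, against 10.5%, 2.39% and 1.505% in the bulk libraries, with no overlap. The 50 most abundant features took 15.4%, 14.2% and 18.3% in the neurons and 36.6%, 20.8% and 16.2% in bulk tissue, where the ranges overlapped and the medians differed by −5.35 percentage points (SD 10.7 over bulk libraries). Much of the bulk share lay in a run of 8 features with consecutive identifiers, among them uc009vex.1, a run known from earlier results to hold abundant features. Together they took 0.249%, 0.478% and 0.0736% of reads in the neurons and 23.3%, 7.48% and 4.85% in bulk tissue. The most abundant feature of every bulk library was itself a member of the run. Shares of the first feature were not computed without the run. With the run left out of both features and totals, the 50 most abundant features took a median of 15.5% in neurons and 15.3% in bulk tissue. The groups thus did not differ beyond their spread. The most abundant features that together held 50% of reads numbered 709, 733 and 551 in the neurons and 223, 616 and 768 in bulk tissue, again with overlap.

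**Figure D1:**
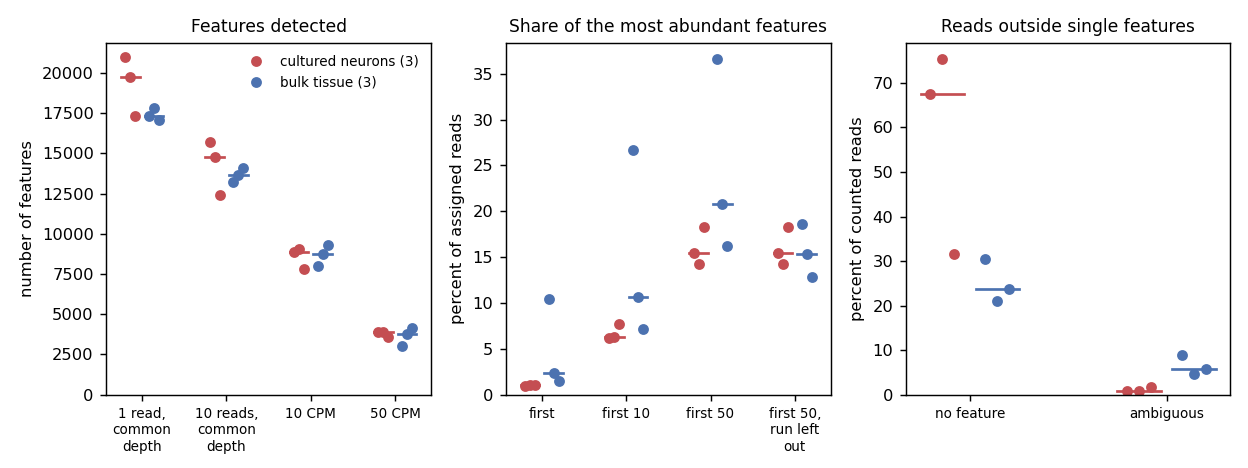
Values of each library, with cultured neurons in red, bulk tissue in blue and a bar at each group's median over 3 libraries. Left, the number of features detected at 4 limits. The neuron median lies higher at 1 read (19754 against 17313) and the medians come together at 50 CPM (3870 against 3776). Middle, the percent of assigned reads taken by the most abundant features, also with the run of 8 features left out. Right, the percent of counted reads outside any feature, median 67.5% in neurons and 23.6% in bulk tissue, and of ambiguous reads.

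By median r the neurons resembled each other about as much as the pieces of tissue did, and resembled tissue less. Measured features were the 11007 whose mean over the 6 libraries reached 5 CPM. Across them, Pearson's r was taken on log2(CPM + 10) for each pair of libraries, as a description, since features are not independent replicates. The median r was 0.886 between neurons (0.840 to 0.914, 3 pairs) and 0.895 between bulk libraries (0.882 to 0.951, 3 pairs). Between a neuron and a bulk library it was 0.761 (0.691 to 0.789, 9 pairs), so the highest value between the groups lay below the lowest within either. The bulk pairs with bulk library 1 gave 0.882 and 0.895. Bulk libraries 2 and 3 gave 0.951, above every neuron pair, so the likeness of the within-group medians rests on bulk library 1. Counted another way, the measured features that lay 4-fold or more apart made up a median of 5.30% between a neuron and a bulk library (4.40% to 8.00%), 1.71% between neurons (1.14% to 3.46%) and 1.34% between bulk libraries (0.118% to 1.36%). The bulk pair at 0.118% was libraries 2 and 3, below every neuron pair, and the other bulk pairs held bulk library 1. The widest neuron pair was 2 and 3, where 360 features were 4-fold higher in neuron 2 and 21 in neuron 3.

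About as many measured features were higher in neurons as lower. A feature was called when the mean log2(CPM + 10) of the groups differed by 1 or more, a 2-fold difference on that scale, and when no library of a group overlapped the other group. By this rule 1021 features were higher in neurons, 9.28% of those measured, and 997 were lower, 9.06%. At 4-fold or more the counts were 126 higher (1.14%) and 173 lower (1.57%), and at 8-fold or more 14 higher (0.127%) and 43 lower (0.391%). The largest differences were therefore more often lower levels in the neurons. The remaining 8989 features, 81.7%, were within 2-fold or had overlapping groups. With no limit on size, 2120 features (19.3%) had all neurons above all bulk libraries, 1865 (16.9%) had all neurons below, and 7022 (63.8%) had overlapping groups. The median difference was 0.04 on the log2 scale, and 90% of the differences lay between −1.38 and 1.36.

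The even split depended on the scaling and on single libraries. With TMM (trimmed mean of M-values) factors, 689 features were higher and 1378 lower, so 33.3% of called features were higher in place of 50.6%, and the median difference moved by −0.16. With the 50 most abundant features left out of the totals, the counts were 850 and 1398, or 37.8% higher. DESeq2 size factors gave 963 and 1065. Under library totals, 1517 features were higher and 1108 lower without neuron 3, 1276 and 905 without bulk library 3, and 1040 and 1475 without bulk library 1. Most calls were shared: 670 of the higher and 988 of the lower features were also called with TMM factors.

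Called features held a large part of the reads. The higher features took 24.8%, 25.6% and 22.9% of the reads of the neurons and 6.58%, 6.99% and 8.55% of those of the bulk libraries. The lower features took 3.49%, 3.79% and 3.10% in the neurons and 37.3%, 20.7% and 18.6% in bulk tissue. Outside the run of 8 features the lower features took 13.95%, 13.2% and 13.8% in bulk tissue and 3.24%, 3.31% and 3.03% in the neurons. These are shares of all assigned reads, the run included. On that base the uneven part of the bulk values lay in the run. Shares of the reads outside the run were not computed for the lower features. All these shares follow from the way the features were called and carry no test.

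**Figure D2:**
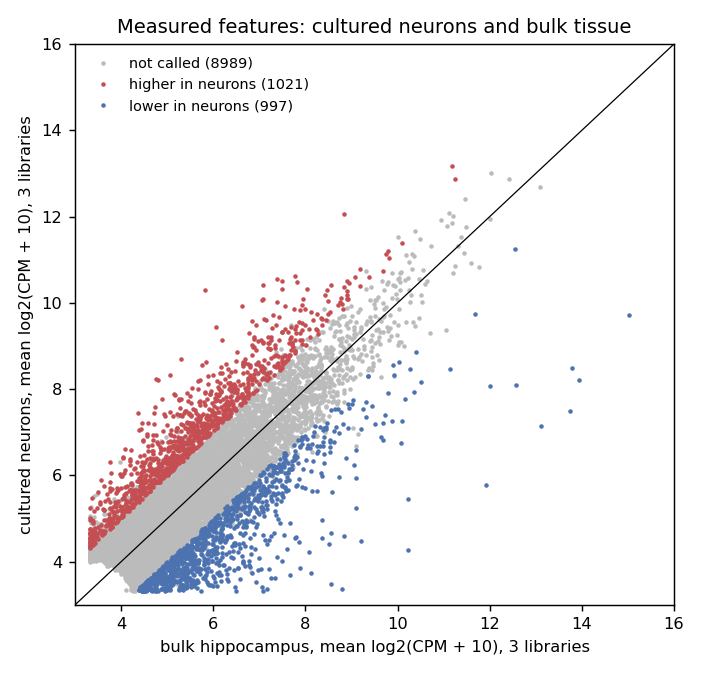
Each point is 1 of the 11007 measured features, with the mean log2(CPM + 10) of 3 bulk libraries on the horizontal axis and of 3 cultured neurons on the vertical axis, and equality as a black line. Red marks the 1021 features higher in neurons and blue the 997 lower, and the points farthest from the line are blue ones on the right, abundant in bulk tissue and low in neurons.

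The share of higher calls grew with abundance up to 1000 CPM. Among features with a mean of 5 to 20 CPM over the 6 libraries, 3.28% were higher in neurons and 6.96% lower (4111 features). At 50 to 200 CPM these shares were 15.0% and 10.3% (2929 features), and at 200 to 1000 CPM 21.7% and 8.45% (876 features), against the 9.28% and 9.06% of all measured features. Among the 89 features at 1000 CPM or more, 14.6% were higher and 12.4% lower. The pseudocount of 10 CPM restricts calls among the lowest features, and the split moves with the scaling as given above. Features at 500 CPM or more numbered 284, 313 and 315 in the neurons and 213, 254 and 252 in bulk tissue, without overlap. This did not hold under other scalings, a check chosen after seeing the data: with TMM factors the counts were 209, 248 and 388 in the neurons and 294, 269 and 222 in bulk tissue.

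Features also differed by how many isoform identifiers their name joined, a rough count of annotated transcripts per feature. Of 3471 measured features with a single identifier, 12.1% were higher in neurons and 9.54% lower. For names of 2 to 3 identifiers the shares were 9.06% and 8.07% (4748 features), and for 4 to 9 identifiers 6.01% and 10.2% (2681 features). Only 107 measured features had 10 or more, with 8.41% higher and 9.35% lower. The median difference was 0.12, 0.05, −0.07 and −0.09 from the first class to the last. Higher calls were thus most frequent among features with a single annotated transcript, and no test of this order was run.

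Among features that passed the limits for naming, the largest excess in neurons on the scale of log2(CPM + 10) was that of uc009gtx.2:uc009gty.1. Its level was 1344, 2270.0 and 644 CPM in neurons 1, 2 and 3 and 21.8, 39.4 and 105 CPM in bulk libraries 1, 2 and 3. The lowest neuron was well above the highest bulk library, although values within each group spread several-fold. The mean was 1419 CPM in neurons (SD 815, n = 3) and 55.4 CPM in bulk tissue (SD 43.8, n = 3), 25.6-fold higher, and the difference in mean log2(CPM + 10) was 4.48. Leaving out any library kept that difference between 4.06 and 4.995. Its summed counts were 60153 reads in neurons, or 1112 CPM with a 95% exact Poisson interval of 1103 to 1121, and 6232 reads in bulk tissue, or 53.1 CPM (51.8 to 54.4). Such intervals cover counting error only.

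Next in order was uc008zgc.1:uc008zgd.1:uc012ecj.1, which varied little from cell to cell. Its level was 300.5, 329 and 254 CPM in the neurons and 11.6, 17.3 and 22.9 CPM in bulk tissue. All neurons were close together and every one lay above all bulk libraries. The mean was 294 CPM in neurons (SD 38.1, n = 3) and 17.2 CPM in bulk tissue (SD 5.65, n = 3), 17.1-fold higher, with a log2 difference of 3.50. The difference was 4.06 with a pseudocount of 1 CPM. The next 8 features of the ranking, not printed here, had differences of 3.18 to 3.42. The first 10 together had neuron means of 287 to 5478 CPM.

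On the scale of log2(CPM + 10), the feature farthest below tissue was uc009vex.1, from the run of consecutive identifiers. Its level was 139, 319 and 108 CPM in the neurons and 20342, 13222 and 9588 CPM in bulk tissue. It was among the 5 most abundant features of every bulk library, at ranks 5, 4 and 2, and at rank 1520, 581 and 1930 in the neurons. The mean was 189 CPM in neurons (SD 114, n = 3) and 14384 CPM in bulk tissue (SD 5470, n = 3), 76.3-fold higher in tissue, a log2 difference of −6.26. Over the alternatives without 1 library it lay between −6.69 and −5.95. All 8 features of the run were called lower in neurons, and 5 of them were among the first 10 of the ranking. The run was picked from earlier results of these data, so this number adds no support.

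Outside the run, uc007fct.1 had the largest deficit on the same scale. Its level was 50.5, 35.04 and 50.2 CPM in the neurons and 10252, 2792 and 1980.2 CPM in bulk tissue. The neurons were close together while the first bulk library was far above the others, as it was for the run of 8 features. The mean was 45.3 CPM in neurons (SD 8.85, n = 3) and 5008 CPM in bulk tissue (SD 4560, n = 3), a log2 difference of −6.14. Without the first bulk library the difference was −5.43. The order of the lowest features depends on the pseudocount: with 1 CPM the differences were −6.40 for uc007fct.1 and −6.34 for uc009vex.1, and 3 less abundant features among the first 10 had larger ratios of means than the 111 of uc007fct.1. The other features among the first 10 had differences between −5.97 and −4.78, larger in size than the 4.48 that led the neuron side.

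The 4 features had other orders in the other hippocampal neurons, whose comparisons share the bulk libraries used here. TIVA (transcriptome in vivo analysis) is capture with a light-activated tag that binds the RNA of 1 chosen cell. The level of uc009vex.1 was 35562 to 199719 CPM in 4 cultured neurons captured by TIVA, above every bulk library, and 2024 to 3409 CPM in 3 pipette neurons and 284 to 1347 CPM in 5 TIVA neurons from tissue, below every bulk library. The run as a whole took 14.8% to 60.4% of reads in the cultured TIVA neurons, 2.19% to 4.29% in the tissue pipette neurons and 0.280% to 1.56% in the tissue TIVA neurons. Cultured pipette neurons, at 0.0736% to 0.478%, were thus the lowest of these groups by median, with a range that overlapped that of tissue TIVA neurons.

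The neuron-high features were less abundant elsewhere. The level of uc009gtx.2:uc009gty.1 was 31.8 to 95.9 CPM in cultured TIVA neurons, 55.3 to 211 CPM in tissue pipette neurons and 79.9 to 253 CPM in tissue TIVA neurons, all below the lowest cultured pipette neuron. For uc008zgc.1:uc008zgd.1:uc012ecj.1 the ranges were 14.1 to 59.5 CPM in cultured TIVA neurons, 0.255 to 284 CPM in tissue pipette neurons and 0 to 42.0 CPM in tissue TIVA neurons, where the 2 cells without a read allow up to 0.104 and 0.113 CPM. One tissue pipette neuron thus reached the level of the cultured ones. The level of uc007fct.1 was 662 to 2004 CPM in cultured TIVA neurons, which overlapped bulk tissue, 16.4 to 65.9 CPM in tissue pipette neurons and 9.21 to 884 CPM in tissue TIVA neurons. All hippocampal neurons collected by pipette, by their source names, thus lay below every cultured TIVA neuron for uc007fct.1. So did the tissue TIVA neurons at 9.21, 11.6, 229 and 297 CPM, but not the one at 884 CPM. The place below cultured TIVA neurons was therefore not particular to pipette collection. The protocol text of the tissue pipette neurons describes TIVA capture. Each feature was picked for its contrast in cultured pipette neurons, which favours the extreme place of that group.

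**Figure D3:**
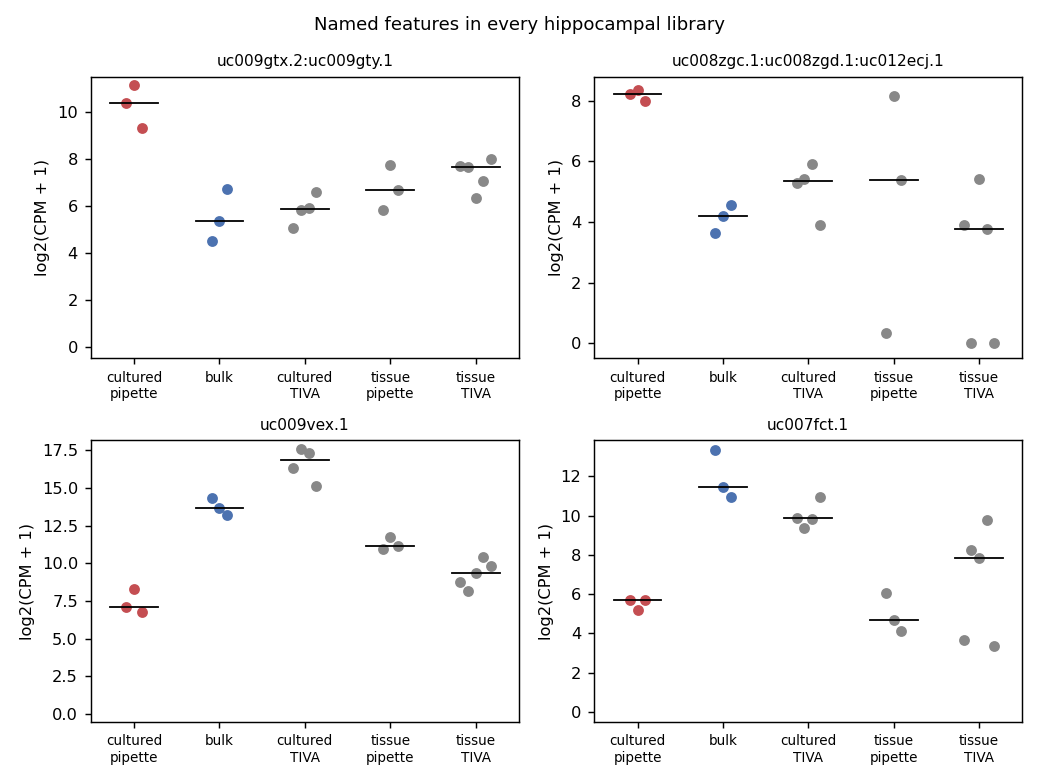
Levels of the 4 named features in all 18 hippocampal libraries, as log2(CPM + 1) on the vertical axis, by group. Points are libraries, bars are medians, red is cultured pipette neurons, blue is bulk tissue and grey the other neurons. Cultured pipette neurons lie highest for both upper features, apart from 1 tissue pipette neuron. For uc009vex.1 they have the lowest median and overlap tissue TIVA neurons, and cultured TIVA neurons lie above bulk tissue.

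Far departures from tissue were mostly private to a cell when upward, and more often shared when downward. Among the 11007 measured features, 140, 285 and 44 were 4-fold or more above every bulk library in neurons 1, 2 and 3. Of the 384 that were so in any neuron, 313 were so in 1 neuron, 57 in 2 neurons and 14 in all 3. Neuron 2 alone held 223 of them, with a median level of 86.3 CPM there, 13.9 CPM in neuron 1, 4.71 CPM in neuron 3 and 2.51 to 2.97 CPM in the bulk libraries. Downward, 72, 96 and 126 features were 4-fold or more below every bulk library. Of the 170 in any neuron, 89 were so in 1 neuron, 38 in 2 neurons and 43 in all 3, or 25.3% shared by all against 3.65% upward.

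Features shared by all neurons were abundant in the group where they were higher, in both directions. The pseudocount of 10 CPM favours abundant features at a 4-fold limit. The 14 features far above tissue in all neurons had median levels of 813, 726 and 644 CPM in the neurons and 57.8, 101 and 127 CPM in bulk tissue. The 43 far below tissue in all neurons had medians of 8.69, 10.1 and 3.83 CPM in the neurons and 206, 215 and 235 CPM in bulk tissue. Features far below tissue in neuron 3 alone numbered 56, with a median of 13.0 CPM there against 51.8 and 63.7 CPM in neurons 1 and 2. Their medians in bulk tissue were also high, at 122 to 174 CPM. These features were chosen for that pattern, so their lower level in neuron 3 is a description. Opposite departures were rare, since 61 features had a neuron 2-fold above and another 2-fold below the bulk mean.

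Counted from the bulk side, private departures were fewer in one direction and more in the other. Features 4-fold or more below every neuron numbered 119, 80 and 36 in the bulk libraries, and 14 of the 176 in any library were so in all 3 (7.95%). Features 4-fold or more above every neuron numbered 93, 154 and 181, and 43 of 256 were shared by all (16.8%). The 14 and the 43 shared features are by definition those already counted from the neuron side, so only the other counts are new. Upward departures in a single neuron, at 313, outnumbered downward departures in a single bulk library, at 131. Downward departures in a single neuron, at 89, were fewer than upward departures in a single bulk library, at 127. Over all measured features, however, the SD of log2(CPM + 10) had a median of 0.37 over neurons and 0.34 over bulk libraries, and it was larger in neurons for 52.7% of features. The excess of variation among neurons was at low levels, where 60.8% of features at 5 to 20 CPM varied more between neurons, against 37.9% at 200 to 1000 CPM.

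**Figure D4:**
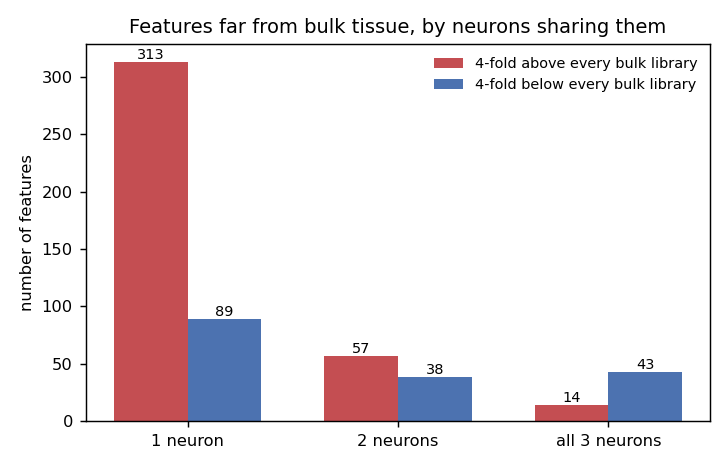
Number of measured features 4-fold or more above every bulk library (red) or below every bulk library (blue), by the number of cultured neurons in which they were so. Upward departures go from 313 in 1 neuron to 14 in all 3, and downward departures from 89 to 43. Counts are out of 11007 measured features, under library totals.

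Few transcripts abundant in every library of a group were missing from the other group. Of 2570 features at 50 CPM or more in every bulk library, 4, 5 and 11 were below 1 CPM in neurons 1, 2 and 3, that is 0.156%, 0.195% and 0.428%. Only 3 were below 1 CPM in all neurons. The 11 features below 1 CPM in neuron 3 had medians of 2.22 and 8.41 CPM in neurons 1 and 2 and of 128 to 173 CPM in bulk tissue. Of 2805 features at 50 CPM or more in every neuron, 0 were below 1 CPM in any bulk library. The limit on every neuron leaves out features abundant in a single cell. Of the 223 features 4-fold or more above every bulk library in neuron 2 alone, many were below 1 CPM in tissue. Their shares were 41.7%, 40.4% and 35.9% in bulk libraries 1, 2 and 3. Of the 56 features far below tissue in neuron 3 alone, 8.93% were below 1 CPM there. The 1914 features at that level in all 6 libraries were 74.5% of the bulk list and 68.2% of the neuron list.

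Loss of an abundant transcript from one cell to another was also rare. Taking each neuron's features at 50 CPM or above, a median of 0.155% were below 1 CPM in another neuron (0% to 1.16% over 6 ordered pairs), against 0.0286% between bulk libraries (0% to 0.0794%). The highest value came from neuron 2 to neuron 3, and the pairs from neuron 3 to the others gave 0. The difference of medians of 0.126 percentage points was smaller than the SD over neuron pairs of 0.438.

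Side by side with other hippocampal neurons set against the same bulk libraries, the cultured pipette neurons had the most features called higher than tissue. The counts were 35 of 10364 measured features for cultured TIVA neurons (0.338%), 329 of 9967 for tissue pipette neurons (3.3%) and 222 of 10231 for tissue TIVA neurons (2.17%). Features called lower numbered 820 (7.91%), 2250 (22.6%) and 846 (8.27%). Groups of 4 and 5 neurons must clear more libraries, so their counts are not on the same footing as those of 3. The median log2 difference from bulk tissue was −0.42, −0.54 and −0.23 in these groups, against 0.04 for cultured pipette neurons. Levels were scaled by library totals only, of which the run took 14.8% to 60.4% in cultured TIVA neurons. The counts therefore depend on that scaling, and no other was run for these groups. The median r with bulk libraries was 0.841 for cultured TIVA neurons, 0.656 for tissue pipette neurons and 0.662 for tissue TIVA neurons, around the 0.761 of cultured pipette neurons. These differences between neuron groups were not tested.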

How the data were processed

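The authors deposited raw read counts per feature for each library. The submitters' processing notes list CASAVA 1.8.1, HTSeq (no version) and build mm9. Aligner, counting mode and strand setting are not given in the sources consulted, so overlapping, antisense and near-identical features could not be told apart. The 5 HTSeq summary lines stayed out of library totals. Groups follow the source names, and libraries are numbered in record order. Every pair of libraries within a group differed beyond sampling noise (lowest chi-square per degree of freedom 80.9), so none was merged.

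Thinning drew reads without replacement, once, from a fixed seed. Analyses ran in Python 3.11.15 with numpy 2.4.6, pandas 2.3.3 and scipy 1.17.1. The packages edgeR 4.0.16 and DESeq2 1.42.0 in R 4.3.3 gave scaling factors only. Features and lists were chosen with earlier results of these data known. Named features needed a mean of 20 CPM and 10 reads per library in the higher group and no overlap, with ranking by the log2 difference. The first 2 in each direction are printed because identifiers could not be paired with symbols. Alternatives were other scalings, pseudocounts, filters and limits, and leaving out each library.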

Additional observations from a re-analysis of the deposited data

Results flagged for a closer look

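Reads outside any feature appeared in data that no comparison used, at a median of 67.5% of counted reads in the neurons, above every bulk library. The level of uc009vex.1 lay on opposite sides of bulk tissue in cultured neurons collected by pipette and by TIVA, since its mean in TIVA neurons was 119991 CPM and all of them lay above all bulk libraries, while all pipette neurons lay below. That difference between the groups of neurons was not tested, and both are read against the same bulk libraries.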

How the results depend on the processing

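With a pseudocount of 1 CPM, 1569 features were higher in neurons and 1511 lower, and with a 4-fold limit 126 and 173. Leaving out each library gave 1037 to 1517 higher and 905 to 1475 lower features, all counts above those at the 4-fold limit. With a library left out, the rule of no overlap is easier to pass. The median difference moved to −0.12 with TMM factors, and lay between −0.05 and 0.14 without single libraries. The difference in features detected was 114 with a limit of 10 CPM, 94 with 50 CPM, and 1225 to 3043 without single libraries, the extremes being without neuron 1 and without neuron 3. The correlation gap, 0.129 as reported (the mean within-group median minus the median between groups), was 0.0639 without the filter on low features, and 0.115 to 0.148 without single libraries. At an on limit of 20 CPM, 0.513% of bulk features were missing from a neuron and 0.0389% of neuron features from bulk tissue. Without single libraries these ranged from 0.175% to 0.408%, the highest without bulk library 1, and from 0% to 0.0310%. The on-off difference was 0.0748 to 0.549 without single libraries, the highest without neuron 1, and the concentration difference −13.3 to −3.07. The causes were not tested. The 4 named differences kept their direction under every alternative run. They were chosen for large differences without overlap, which leaves little room for a reversal, so this adds no support. No paired analysis was possible because the labels give no replicate numbers. Depth limits statements on absence to the floors given.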
